A study of Mus musculus with 16 samples.

Results

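The light response of the neurosensory retina (NSR), made up of photoreceptors, other neurons and glia, was set against that of the retinal pigment epithelium (RPE), the single layer of cells behind the photoreceptors. For every gene, the difference between light-exposed and control RPE minus the difference between light-exposed and control NSR was taken, so that a positive value means a larger rise or a smaller fall in the RPE. All 16 arrays of the series entered this comparison. The 4 groups were NSR and isolated RPE of light-exposed mice and NSR and isolated RPE of control mice, with 4 arrays in each. All 8 mice were male Balb/cJ, an albino strain without melanin pigment, and 10 weeks old. Light-exposed mice had received cool white fluorescent light of 10000 lux for 18 hours, with tissue taken 4 hours later, while control mice had been kept on a 12-hour light cycle. An effect of bright light and one of the altered lighting schedule cannot be told apart. Each mouse gave 1 NSR and 1 RPE sample, and each sample had its own one-colour Affymetrix Mouse Gene 1.0 ST array.

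Photoreceptors renew their light-sensitive outer segments throughout life, and the RPE engulfs the shed tips, regenerates the visual chromophore, carries nutrients and waste between the retina and the blood, and forms the outer blood-retina barrier. Strong light kills photoreceptors in albino rodents, and the surviving neurons, the Müller glia and the RPE respond with stress, cytokine and wound-type programmes. Müller glia span the retina and support its neurons, and microglia are its resident macrophages.

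Values are on the log2 scale, where a step of 1 is a 2-fold change, and errors of changes are standard errors. With 4 arrays a group, their number limits the precision throughout, and the p-values measure the spread between the 4 mice of a group. Array medians lay between 6.52 and 6.57 in the NSR and between 6.38 and 6.43 in the RPE. The defining genes of each tissue were where the labels put them: the median of the RPE markers was 11.04 to 11.48 on the RPE arrays and 6.26 to 6.57 on the NSR arrays. Rod genes, at 11.60 to 11.71 in control NSR, were at 7.84 to 8.38 in control RPE. 3 RPE arrays stood apart from their group in markers of other tissue: lens genes were at 7.37 on the array of control mouse 2 against 6.19 to 6.44, cornea and ciliary genes at 6.87 on that of light mouse 2 against 6.03 to 6.12, and bipolar cell genes at 7.40 on that of light mouse 1 against 6.45 to 6.71. Several counts are also given without these 3 RPE arrays. The tissues were dissected in bulk, so that fewer cells of a type and less RNA per cell cannot be told apart in any result below. Genes under 5.63, the dimmest 25%, may lie near background, and a fall there could not be seen well.

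The tissues differed in their response to light at 2635 of 19938 genes tested, or 13.2% (limma, Benjamini-Hochberg adjusted p under 0.05). The response was more positive in the RPE for 1029 of them, 5.16% of the genes tested, and more negative for 1606, or 8.05%. This skew was smaller under quantile normalization, with 1288 more positive and 1455 more negative over all arrays. Quantile normalization within each tissue gave 1294 and 1485. Of 13 housekeeping genes 2 were more positive and 3 more negative in the RPE, or 38.5% called against 13.2% of all genes. The 2 became 0 with the mouse as a block. What this list says of the normalization was not tested. A difference of at least 2-fold was seen at 433 called genes, 110 more positive and 323 more negative in the RPE. By themselves, the NSR changed at 3013 genes (15.1%) and the RPE at 3510 (17.6%), or 2056 without the 3 RPE arrays. Rises made up 8.87% and falls 6.24% of all genes tested in the NSR, and 9.08% and 8.53% in the RPE, which is the background for the gene lists. The median standard error of a difference was 0.12. Zdhhc4, with a difference of -0.37 and an adjusted p of 0.0499, lay just inside the threshold, and Ttc39d, with 0.47 and 0.0501, just outside it.

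Setting the responses against each other shows how far the tissues moved together. Of 1120 genes called in both tissues, 934 changed the same way and 186 in opposite directions. Of 4283 genes called in 1 tissue and not in the other, 1968 were also called for the difference. The remaining 2315 did not pass that test, so a call in 1 tissue alone does not show that the tissues differ. Across genes, which are not independent replicates, the responses of the tissues correlated with a Pearson coefficient of 0.33.

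**Figure D1:**
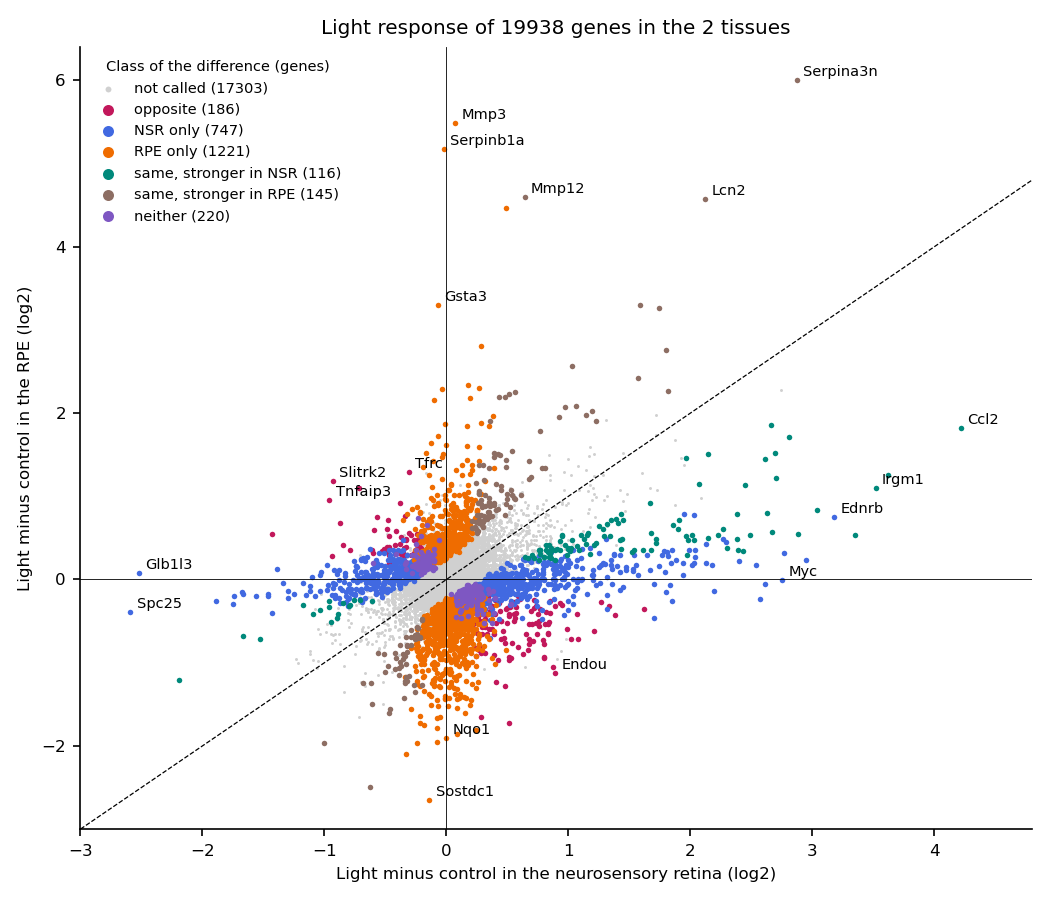
The light response of each gene in the NSR (horizontal axis, log2) against that in the RPE (vertical axis, log2), each from 4 light and 4 control arrays, coloured by class. The 186 genes with opposite responses lie above left and below right of the origin, and the 747 NSR-only and 1221 RPE-only genes lie along the axes.

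The genes called for the difference fell into classes by their response in each tissue. The RPE alone had changed at 1221 genes (46.3% of those called for the difference) and the NSR alone at 747 (28.3%), while 186 (7.06%) had changed in opposite directions. Another 116 had changed the same way with a larger response in the NSR, 99 of them as rises (53 in all without the 3 RPE arrays), and 145 the same way with a larger response in the RPE, 94 of them as rises. That last count moved with single arrays, to 93 without NSR control mouse 3, 95 without NSR control mouse 2 and 96 without NSR light mouse 2. The other 220 passed the test of the difference without passing in either tissue, or 354 without the 3 RPE arrays. To limit how large a response could have been missed in the other tissue, its 95% interval was required to lie within 1.5-fold of no change. Of the NSR-only genes 679 met this bound (90.9%), and of the RPE-only genes 1203 (98.5%). The other tissue's values lay in the dimmest 25% for 31 of 442 rises and 42 of 305 falls of the NSR, and for 39 of 461 rises and 53 of 760 falls of the RPE.

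Genes that responded in opposite directions covered both orientations. At 131 genes the NSR rose and the RPE fell, with median responses of 0.49 and -0.50, and at 55 genes the NSR fell and the RPE rose, with medians of -0.37 and 0.42. Without the 3 RPE arrays named above, 32 genes fell in the NSR and rose in the RPE. In 20 genes of the first kind and 5 of the second both tissues moved by at least 1.5-fold. No overlap of the arrays between light and control was seen in either tissue at 119 of the 131 and 53 of the 55, against 7.81% of all genes tested. Since these genes were chosen for a call in both tissues, nothing is read from those counts.

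Among the genes that fell in the NSR and rose in the RPE were regulators of inflammation, cyclic AMP signalling and iron uptake. Tnfaip3 encodes A20, a feedback inhibitor of the NF-kB pathway. It read 9.51, 9.64, 9.53 and 9.52 in control NSR and 8.57, 8.55, 8.87 and 8.35 in light-exposed NSR, against 7.06, 6.86, 7.01 and 6.78 in control RPE and 7.96, 8.10, 7.61 and 7.83 in RPE after light. Light and control arrays were separate in both tissues, and the level in the RPE drew near that in the NSR from below. The fall of 1.95-fold and the rise of 1.93-fold made a difference of 1.91 ± 0.15 (adjusted p = 2.43e-07).

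Pde7b encodes a phosphodiesterase that breaks down cyclic AMP. Its values went from 9.39, 9.49, 9.60 and 9.44 to 8.66, 8.89, 8.87 and 8.63 in the NSR, and from 9.07, 8.87, 9.29 and 8.81 to 10.14, 10.10, 10.18 and 10.02 in the RPE. The tissues thus exchanged their order, with every light-exposed RPE array above every light-exposed NSR array, and the difference was 1.82 ± 0.13 (adjusted p = 8.89e-08). Slitrk2, a membrane protein of synapses, fell from 8.73, 8.72, 8.67 and 8.84 to 7.89, 7.92, 7.75 and 7.69 in the NSR. Its RPE values rose from 6.31, 6.64, 6.46 and 5.88 to 6.97, 7.22, 8.47 and 7.36, where light mouse 3 stood highest, and the difference was 2.11 ± 0.32 (adjusted p = 0.00021). Without RPE control mouse 4 the rise in the RPE missed the threshold, at 1.04 with an adjusted p of 0.0548.

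Tfrc, the transferrin receptor through which cells take up iron, fell slightly in the NSR, from 10.08, 10.04, 9.95 and 9.98 to 9.77, 9.71, 9.64 and 9.66. Its RPE values rose 2.45-fold, from 9.16, 9.05, 9.33 and 9.08 to 10.43, 10.45, 10.56 and 10.35. Groups did not overlap in either tissue, and the difference of 1.61 ± 0.10 had an adjusted p of 1.49e-08. Rgs9, which speeds the shut-off of transducin in photoreceptors, went from 11.72, 11.67, 11.67 and 11.62 to 11.36, 11.34, 11.29 and 11.38 in the NSR and from 11.32, 11.12, 11.14 and 11.22 to 11.72, 11.64, 11.64 and 11.73 in the RPE. The direction was the same on every array of a group, and the difference was 0.81 ± 0.08 (adjusted p = 2.62e-06).

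Genes that rose in the NSR and fell in the RPE included the receptor for outer segment uptake and matrix genes. Mertk, the receptor with which RPE cells engulf shed outer segments, fell in the RPE from 10.90, 10.72, 10.65 and 10.75 to 10.22, 10.15, 10.14 and 10.35, a drop of 1.45-fold. Its low NSR values rose 1.60-fold, from 7.06, 6.56, 6.76 and 6.99 to 7.59, 7.43, 7.63 and 7.43. The groups stayed apart in both tissues, and the difference was -1.22 ± 0.14 (adjusted p = 1.02e-05).

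Endou, a secreted endoribonuclease, showed the largest difference of this kind among the genes named with array values. It rose in the NSR from 6.17, 6.35, 6.18 and 6.11 to 6.96, 7.06, 7.35 and 7.0, and fell in the RPE from 9.01, 8.52, 8.84 and 8.88 to 7.59, 7.65, 7.63 and 7.92. The difference of -2.00 ± 0.15 had an adjusted p of 1.40e-07. Ccn1, a secreted matricellular protein induced in wound repair, rose in the NSR from 8.39, 8.13, 8.31 and 8.39 to 9.08, 9.17, 9.41 and 9.04. In the RPE it fell from 10.47, 10.87, 10.84 and 10.90 to 9.36, 9.90, 9.79 and 9.81, with control mouse 1 below its group yet above every light array, and the difference was -1.92 ± 0.17 (adjusted p = 8.24e-07).

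Timp3, an inhibitor of metalloproteinases that the RPE lays down in the membrane beneath it, was chosen after its values were seen. It fell from 12.63, 12.60, 12.66 and 12.61 to 12.08, 12.06, 11.72 and 12.06 in the RPE and rose from 7.97, 7.99, 8.38 and 8.29 to 8.78, 9.05, 9.01 and 8.76 in the NSR. Light mouse 3 was lowest in the RPE, the groups did not overlap in either tissue, and the difference was -1.39 ± 0.14 (adjusted p = 4.55e-06). Mt1, a metal-binding metallothionein, rose 2.51-fold in the NSR, from 9.64, 9.74, 10.00 and 9.58 to 11.04, 11.12, 11.21 and 10.91. Its fall in the RPE was small, from 12.65, 12.60, 12.75 and 12.65 to 12.30, 12.32, 12.36 and 12.38, and without the 3 RPE arrays it had an adjusted p of 0.0657. The difference was -1.65 ± 0.12 (adjusted p = 7.73e-08), most of it the rise in the NSR.

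**Figure D2:**
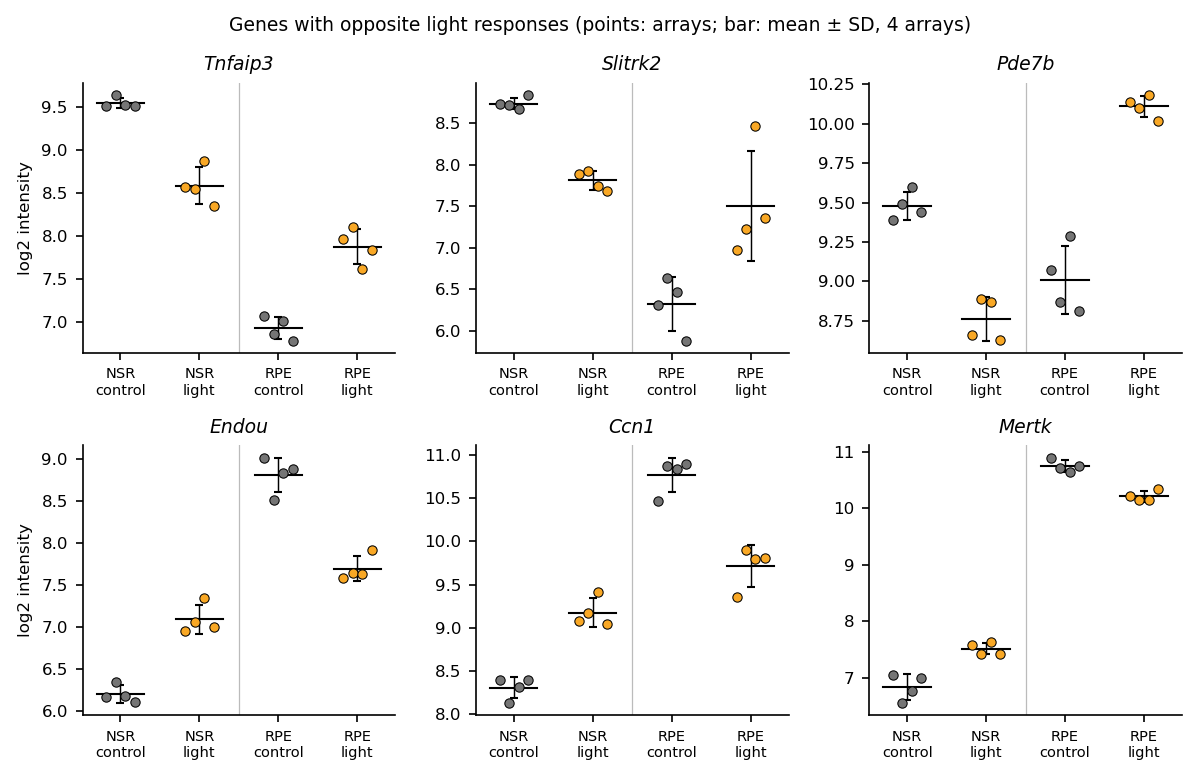
Log2 expression of 6 genes with opposite responses on each array (points, 4 per group) with the group mean and SD (bars), for control and light in NSR and RPE. Tnfaip3, Slitrk2 and Pde7b go down in the NSR and up in the RPE, and Endou, Ccn1 and Mertk the reverse, without overlap of light and control arrays in either tissue.

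Other opposite genes covered several functions. Ccnd1, a cyclin of the entry into the cell cycle, changed by 0.82 in the NSR and -0.39 in the RPE. Grik1, a glutamate receptor subunit of OFF bipolar cells, changed by 0.39 and -0.91. Timp2, a metalloproteinase inhibitor, changed by 0.68 and -0.78.

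Opposite responses mostly brought the tissues closer. Of the 131 genes that rose in the NSR and fell in the RPE, 118 were higher in control RPE than in control NSR, and of the 55 that did the reverse, 43 were higher in control NSR. The gap between the tissues was smaller in light-exposed than in control mice at 139 of the 186 genes (74.7%). This share was 62.1% of all genes called for the difference and 50.3% of all genes tested. The median gap over these genes was 1.60 in control and 0.96 in light-exposed mice. The control arrays enter both the gap and the difference of responses, so these shares are a description and have no test. The same contrast can be read by animal, since each mouse gave both tissues: RPE minus NSR did not overlap between light-exposed and control mice at 3514 of all genes (17.6%) and at 185 of the 186. These 186 genes were chosen for a called difference on the same arrays, so nothing is read from that count.

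Among the 50 gene lists examined, the interferon-induced genes had the most members called for the difference. They are the antiviral and antigen-presentation programme switched on by interferons. Of 39 measured, 33 rose in the NSR and 20 in the RPE. The response was more negative in the RPE at 28 and more positive at 0 (limma, adjusted p under 0.05, with 30 and 0 at an unadjusted p under 0.05), against 8.05% and 5.16% of all genes tested. Over all genes, 8.87% rose in the NSR and 9.08% in the RPE. The median response was 1.96 in the NSR and 0.44 in the RPE, and the median difference was -1.28, against 0.02 over all genes. Of the 28, 12 changed in the NSR only and 16 rose in both tissues, more in the NSR. Before light the list stood higher in the RPE, with array medians of 6.65 to 6.93 against 6.11 to 6.26, and after light it stood at 7.27 to 7.40 in the RPE and 7.90 to 8.36 in the NSR. Microglia markers, whose part in this was not tested, were at 5.81 to 5.93 in control and 5.88 to 6.10 in light-exposed NSR and at 6.87 to 7.33 and 6.94 to 7.25 in the RPE.

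Ddx58 encodes RIG-I, a cytosolic sensor of viral RNA. It rose 7.71-fold in the NSR, from 6.19, 6.70, 6.71 and 6.79 to 9.47, 9.53, 9.69 and 9.48. In the RPE it read 8.94, 8.89, 9.07 and 8.74 in control and 9.02, 9.22, 9.32 and 9.01 in light-exposed mice, with overlapping groups (adjusted p = 0.139). The NSR thus passed the RPE from below, and the difference was -2.72 ± 0.16 (adjusted p = 1.49e-08).

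B2m, the invariant chain of MHC class I, rose 4.57-fold in the NSR, from 8.47, 9.03, 9.0 and 8.89 to 10.96, 11.01, 11.31 and 10.88. RPE arrays were already at 12.31, 12.31, 12.33 and 12.27 and read 12.15, 12.15, 12.19 and 12.17 after light, without overlap but with an adjusted p of 0.105 for that response, which passed the threshold as a fall under a trended and robust prior. Its difference was -2.33 ± 0.15 (adjusted p = 2.38e-08). Ifit3, which binds viral RNA, rose in the NSR from 6.16, 6.89, 6.70 and 5.96 to 8.62, 8.94, 9.73 and 8.59. Its RPE values of 9.56, 9.44, 9.37 and 9.60 overlapped the light values of 9.73, 9.27, 10.00 and 9.70, and the difference was -2.36 ± 0.33 (adjusted p = 8.20e-05).

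The 16 members that rose in both tissues and passed the test of the difference rose less in the RPE. Irgm1, an interferon-induced GTPase of defence inside cells, rose 11.5-fold in the NSR, from 5.56, 5.35, 5.0 and 4.98 to 8.63, 8.79, 8.76 and 8.81, and 2.15-fold in the RPE, from 6.81, 7.39, 7.11 and 7.23 to 8.24, 8.20, 8.22 and 8.30. The light-exposed tissues ended close together, and the difference was -2.42 ± 0.17 (adjusted p = 7.77e-08). Mx2, an antiviral GTPase, rose from 5.16, 4.75, 5.04 and 5.48 to 8.50, 8.57, 8.38 and 8.39 in the NSR and from 5.41, 5.69, 5.59 and 5.73 to 5.95, 5.93, 6.55 and 6.08 in the RPE, a difference of -2.82 ± 0.20 (adjusted p = 7.15e-08). The small rise of Mx2 in the RPE missed the threshold without RPE control mouse 1 (adjusted p = 0.0688) or 3 (adjusted p = 0.0566). Transcription factors of the pathway also differed: Stat2 changed by 2.40 in the NSR and 0.22 in the RPE, Irf9 by 2.30 and 0.38, and Irf7 by 2.38 and 0.49. So did the antigen-processing genes Psmb9, with 2.38 and 0.79, and Tap1, with 1.72 and 0.44.

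**Figure D3:**
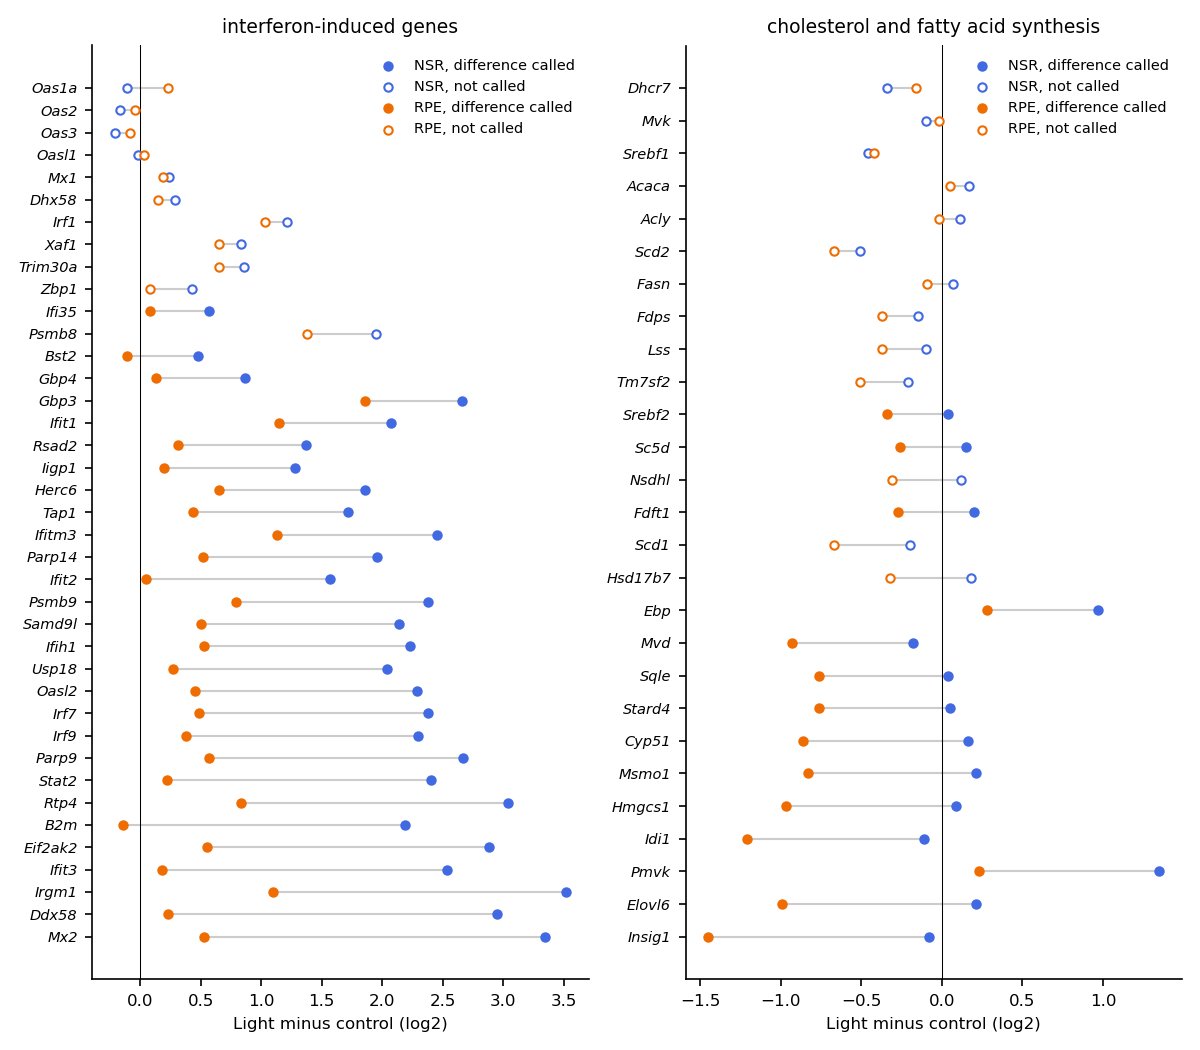
Light response (log2) in NSR and RPE for each measured gene of the interferon-induced list and of the cholesterol and fatty acid synthesis list, 4 light and 4 control arrays per tissue. Filled symbols mark genes called for the difference: 28 of 39 interferon-induced genes, all more negative in the RPE, and 14 of 27 lipid synthesis genes.

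Promoters that respond to interferons often hold a sequence known as the interferon-stimulated response element (ISRE). In the promoter windows of RefSeq (build GRCm38.p6, 250 bases before to 50 after each gene's start), GAAANNGAAA was searched on both strands. Of the 28 called members 21 had a window, and 12 of these held a match, 8 of them before the start. For these 8 genes the stretch around the first match is shown 5′ to 3′ on the strand of the gene. That match is in capitals, so that the element can be compared between genes of the list. Further matches, such as those overlapping the first in Bst2 and Irgm1, are not marked.
B2m, chr2:122147533-122147572, plus strand: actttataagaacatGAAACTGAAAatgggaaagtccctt
Stat2, chr10:128270261-128270300, plus strand: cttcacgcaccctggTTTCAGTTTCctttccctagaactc
Ifit3, chr19:34583358-34583397, plus strand: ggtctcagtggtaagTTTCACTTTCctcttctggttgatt
Rsad2, chr12:26456548-26456587, minus strand: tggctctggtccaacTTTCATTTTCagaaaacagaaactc
Bst2, chr8:71537578-71537617, minus strand: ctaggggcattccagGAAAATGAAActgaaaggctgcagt
Ifit1, chr19:34640770-34640809, plus strand: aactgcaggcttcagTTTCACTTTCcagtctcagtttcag
Irgm1, chr11:48871426-48871465, minus strand: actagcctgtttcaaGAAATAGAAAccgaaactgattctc
Gbp3, chr3:142559984-142560023, plus strand: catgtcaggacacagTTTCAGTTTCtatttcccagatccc
Of these genes B2m, Stat2, Ifit3, Rsad2 and Bst2 changed in the NSR only, and Ifit1, Irgm1 and Gbp3 rose in both tissues. Matches thus stood in genes of both kinds of response. Over whole windows, it was found in 3.27% of 19116 promoters of 15563 tested genes, in 5.0% of those of genes that rose in the NSR only, and in 14.4% of the 104 promoters of genes that rose in both tissues and more in the NSR. Before the start alone the last share was 7.69%, against 2.86% of all. Genes that rose in both and more in the RPE held it in 5.62%. A match is a description of letters and not a measured binding site.

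The immediate early genes, transcription factors and phosphatases that cells switch on within minutes of a stimulus, differed in the same direction. Of 33 measured, 19 rose there and 3 in the RPE, and the difference was more negative in the RPE at 13 and more positive at 1, or 2 without RPE light mouse 1. Over all genes 8.87% rose in the NSR and 9.08% in the RPE, and 8.05% and 5.16% were more negative and more positive. The median difference was -0.35. Myc, a driver of growth, rose 6.73-fold in the NSR, from 5.01, 5.22, 5.20 and 5.17 to 7.64, 7.91, 8.39 and 7.68. Its RPE arrays overlapped, at 5.75, 6.23, 6.48 and 6.03 in control and 6.04, 5.79, 6.34 and 6.28 in light-exposed mice, and the difference was -2.76 ± 0.23 (adjusted p = 4.50e-07).

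Egr2, a zinc finger transcription factor, rose 6.83-fold in the NSR, from 6.03, 6.09, 6.24 and 6.21 to 8.88, 9.11, 8.87 and 8.79. It read 6.45, 6.96, 7.19 and 7.05 in control RPE and 7.26, 7.11, 7.56 and 7.01 after light, with overlap, and the difference was -2.45 ± 0.19 (adjusted p = 2.26e-07). The AP-1 subunits Jun and Fos changed by 1.42 and 1.00 in the NSR and by -0.13 and -0.37 in the RPE, and the stress factor Atf3 by 1.85 and -0.26. The exception was Maff, a small Maf factor, with 0.49 in the NSR and 1.35 in the RPE.

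Metal binding and iron handling differed gene by gene. Mt2, a metallothionein, rose 6.12-fold in the NSR, from 8.67, 8.54, 8.90 and 8.71 to 11.20, 11.33, 11.50 and 11.24. RPE arrays stood at 12.43, 12.45, 12.48 and 12.47 in control and 12.39, 12.43, 12.49 and 12.33 in light-exposed mice. The difference of -2.66 ± 0.11 (adjusted p = 2.22e-10) went with a response of -0.05 ± 0.06 in the RPE, and the NSR rose toward the RPE's level. These RPE values, like those of B2m and Trf, lie high on a scale whose highest value was 13.84. Whether a rise could be missed there was not tested.

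Trf, which carries iron between cells, followed the same course. Its NSR values went from 7.48, 7.48, 7.81 and 7.46 to 9.26, 9.29, 9.19 and 9.28, while the RPE read 13.00, 13.02, 12.98 and 13.00 in control and 12.95, 12.92, 12.93 and 13.00 after light. The difference was -1.75 ± 0.10 (adjusted p = 5.96e-09). Of 33 iron genes measured, 4 were more positive and 7 more negative in the RPE, against 5.16% and 8.05% of all genes. Ftl1, the light chain of ferritin, which stores iron, changed by 0.92 in the NSR and 0.08 in the RPE, and Bmp6, an inducer of hepcidin, by -0.09 and -1.18.

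Ednrb, the endothelin receptor of Müller glia and also a gene of melanocytes, rose 9.08-fold in the NSR, from 6.86, 6.85, 7.03 and 6.59 to 9.87, 9.93, 10.50 and 9.75. In the RPE it read 7.47, 8.32, 8.53 and 7.27 in control and 8.51, 8.97, 8.62 and 8.48 after light, overlapping and with an adjusted p of 0.0842, which was 0.0241 without RPE control mouse 3. Its difference was -2.43 ± 0.33 (adjusted p = 6.6e-05).

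C3ar1, the receptor of the complement fragment C3a on myeloid cells, rose 4.39-fold in the NSR, from 5.85, 6.10, 5.87 and 6.04 to 7.90, 8.13, 8.49 and 7.87. RPE values were 8.24, 8.75, 8.78 and 8.84 in control and 9.47, 8.65, 8.44 and 8.83 in light-exposed mice, with overlap, and the difference was -1.94 ± 0.26 (adjusted p = 7.30e-05). Of 23 complement genes measured, 4 were more negative in the RPE and 1, C4b, more positive, against 8.05% and 5.16% of all genes; with the mouse as a block, or without RPE light mouse 3, 2 were more positive. C4b changed by 0.19 in the NSR and 1.27 in the RPE. Of 26 markers of microglia and macrophages, 15.4% were called for the difference, against 13.2% of all genes.

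Among the falls of the NSR were rod, cone and Müller glia genes. Of 26 measured rod genes, 25 fell in the NSR and 4 in the RPE, and the response was more positive in the RPE at 7 and more negative at 0 (limma, adjusted p under 0.05, with 9 and 1 at an unadjusted p under 0.05). Over all genes these shares were 5.16% and 8.05%, and 6.24% fell in the NSR and 8.53% in the RPE. Without the 3 RPE arrays 3 rod genes were more negative, and without RPE light mouse 1 alone 1. The median difference of the list was 0.28, with median responses of -0.52 and -0.31. The array medians of the rod list spread from 7.41 to 8.49 in light-exposed RPE, and the part of rod RNA left on the RPE at dissection was not tested. Reep6, a membrane-trafficking protein of rods, changed by -1.30 in the NSR and -0.22 in the RPE, and Fscn2, an actin bundler of photoreceptors, by -1.04 and -0.14.

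Cone genes fell at 10 of 15 in the NSR and 5 in the RPE, with 4 more positive and 1 more negative in the RPE, against 5.16% and 8.05% of all genes. Arr3, the arrestin of cones, fell 3.21-fold in the NSR, from 10.00, 10.14, 10.06 and 10.17 to 8.40, 8.55, 8.04 and 8.65. Its RPE values were dim, at 6.15, 5.79, 5.20 and 5.19 in control and 5.75, 5.14, 5.31 and 5.51 after light, and the difference was 1.53 ± 0.26 (adjusted p = 0.000652). Opn1sw, the short-wavelength cone opsin, fell in both tissues, from 11.89, 11.83, 11.90 and 11.86 to 9.86, 9.76, 9.21 and 9.87 in the NSR and from 7.26, 7.68, 7.09 and 7.71 to 6.62, 6.20, 5.87 and 6.19 in the RPE. The NSR fell further, and the difference was 0.98 ± 0.24 (adjusted p = 0.00911).

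Among Müller glia genes 9 of 19 fell and 5 rose in the NSR, and the difference was more positive in the RPE at 6 and more negative at 3, against 5.16% and 8.05% of all genes. Spc25, a kinetochore protein that is also among the genes enriched in Müller glia, fell 6.01-fold in the NSR, from 10.71, 10.95, 10.85 and 10.72 to 8.21, 8.50, 7.36 and 8.81. Its RPE arrays, at 6.77, 6.30, 5.99 and 6.36 in control and 5.80, 6.35, 6.0 and 5.71 after light, overlapped, and the difference was 2.20 ± 0.33 (adjusted p = 0.000175). Glul, which turns glutamate into glutamine, changed by -0.88 in the NSR and -0.01 in the RPE, and the intermediate filament gene Vim by 1.67 and 0.92.

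Glb1l3, a galactosidase-like gene, fell 5.74-fold in the NSR, from 8.58, 8.42, 8.43 and 8.60 to 5.91, 5.86, 6.26 and 5.92. In the RPE it lay in the dimmest 25% throughout, at 4.70, 4.41, 4.84 and 4.63 in control and 4.71, 4.90, 4.86 and 4.42 after light. The difference of 2.60 ± 0.16 (adjusted p = 1.53e-08) therefore shows a fall in the NSR of a gene with little signal in the RPE.

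Mmp3 and Serpinb1a rose in the RPE only, while their lists went both ways: of 20 metalloproteinases and inhibitors 5 were more positive and 4 more negative in the RPE, and of 13 serpins and other protease inhibitors 3 and 5, or 3 more negative without the 3 RPE arrays. The shares over all genes were 5.16% more positive and 8.05% more negative. Mmp3, the metalloproteinase stromelysin-1, rose 44.8-fold in the RPE, from 5.12, 5.64, 5.38 and 4.96 to 10.63, 10.71, 11.28 and 10.42. In the NSR it stayed in the dimmest 25%, at 4.98, 5.39, 5.40 and 5.56 in control and 5.33, 5.14, 5.51 and 5.62 in light-exposed mice. The difference was 5.42 ± 0.25 (adjusted p = 6.32e-10), and its fold is uncertain because control values may lie near background.

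Serpinb1a, an inhibitor of neutrophil proteases, rose 36.1-fold in the RPE, from 5.64, 5.74, 6.08 and 6.23 to 10.92, 11.11, 11.50 and 10.87. NSR arrays overlapped at 5.10, 5.20, 5.17 and 5.06 against 5.17, 4.77, 5.47 and 5.01, and the difference was 5.20 ± 0.22 (adjusted p = 2.22e-10). Neutrophil markers, whose part was not tested, had array medians of 4.98 to 5.26 in control RPE and 5.22 to 5.35 after light. Gsta3, a glutathione transferase, rose 9.88-fold in the RPE, from 7.89, 7.89, 8.20 and 8.27 to 11.25, 11.31, 11.68 and 11.22. It overlapped in the NSR, at 6.59, 6.83, 6.30 and 6.5 against 6.03, 6.53, 6.59 and 6.79, and the difference was 3.38 ± 0.22 (adjusted p = 2.26e-08).

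Tnc and Il6 rose in the RPE as well, while their lists went both ways. Of 28 extracellular matrix genes 5 rose and 4 fell in the RPE, with 5 more positive and 4 more negative for the difference. Of 22 interleukin and TNF family genes 6 rose and 2 fell in the RPE, with 1 more positive and 4 more negative for the difference. The shares over all genes were 9.08% and 8.53% for rises and falls in the RPE, and 5.16% and 8.05% for the difference. The 1 more positive interleukin or TNF family gene was lost when the dimmest 25% of genes were left out, which kept 14 of the 22. Tnc, the matricellular protein tenascin C, rose 4.92-fold in the RPE, from 6.28, 5.76, 6.01 and 5.69 to 8.20, 7.99, 8.77 and 7.99. It read 6.68, 6.71, 6.73 and 6.85 in control NSR and 6.92, 6.90, 7.40 and 6.81 after light, and the difference was 2.03 ± 0.23 (adjusted p = 1.19e-05). Il6, a cytokine that signals through gp130, rose in the RPE from 3.36, 3.40, 3.25 and 3.58 to 5.05, 4.60, 5.61 and 5.86, and read 3.41, 3.32, 3.35 and 3.33 in control and 3.50, 3.73, 3.90 and 3.39 in light-exposed NSR. Every value but the 5.86 of RPE light mouse 4 lies under 5.63, in the dimmest 25%, and may be near background. The difference of Il6 was 1.61 ± 0.27 (adjusted p = 0.000561). Without NSR light mouse 4, Il6 also passed the threshold in the NSR (adjusted p = 0.0261). Of 22 genes of the gp130 and STAT3 pathway 5 were more positive and 8 more negative in the RPE, against 5.16% and 8.05% of all genes. Some of its receptor subunits are given as examples. Il6st and Osmr changed by 1.21 and 2.61 in the NSR and by 0.41 and 1.45 in the RPE. Lifr and Cntfr changed by 0.13 and -0.13 in the NSR and by 1.37 and 0.98 in the RPE.

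Falls of the RPE alone, 760 genes, were the most numerous class, and 657 of them were higher in control RPE than in control NSR. They included genes that mark the RPE. Of 35 RPE markers measured, 22 fell in the RPE and 5 in the NSR, and the difference was more negative at 13 and more positive at 3. Without NSR control mouse 1 the last count was 5. Over all genes 8.53% fell in the RPE and 6.24% in the NSR, and 8.05% and 5.16% were more negative and more positive. The median difference was -0.30. Sostdc1, a secreted antagonist of BMP and Wnt signals, fell 6.29-fold in the RPE, from 11.97, 12.00, 11.96 and 11.91 to 9.42, 9.41, 8.74 and 9.65. NSR arrays overlapped at 6.88, 7.01, 6.51 and 6.76 against 6.80, 6.59, 6.66 and 6.52, and the difference was -2.51 ± 0.20 (adjusted p = 2.83e-07).

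Nqo1, a quinone reductase of the NRF2 response, fell 3.75-fold in the RPE, from 9.44, 9.41, 9.13 and 9.27 to 7.35, 7.54, 6.95 and 7.76. In the NSR it was dim and overlapped, at 5.25, 5.41, 5.06 and 4.89 against 5.32, 5.43, 5.05 and 4.81, and the difference was -1.91 ± 0.23 (adjusted p = 1.68e-05). Of 37 antioxidant genes measured, 8 were more negative and 3 more positive in the RPE, against 8.05% and 5.16% of all genes.

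Cldn2 and Tyr fell in the RPE. Cldn2, a claudin of leaky tight junctions, fell from 9.79, 9.59, 9.43 and 9.98 to 7.76, 8.14, 7.84 and 8.15 in the RPE and read 5.35, 4.94, 5.07 and 5.30 against 4.71, 5.14, 5.21 and 4.70 in the NSR (difference -1.50 ± 0.20, adjusted p = 6.6e-05). Every NSR value of Cldn2 lay in the dimmest 25%, where a fall could not be seen well. Tyr, the first enzyme of melanin synthesis, which is inactive in albino mice but still transcribed, fell from 10.18, 10.04, 10.34 and 10.22 to 9.28, 9.15, 8.73 and 9.36 in the RPE. In the NSR it was near the bottom of the scale, at 4.12, 4.37, 4.36 and 4.16 against 4.11, 4.15, 4.19 and 4.17, where a fall could not be seen, and the difference was -0.96 ± 0.16 (adjusted p = 0.000355).

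The melanocyte list, which shares the melanin genes with the RPE, had 8 of 14 genes more negative and 1 more positive in the RPE, against 8.05% and 5.16% of all genes. Its array medians went from 10.07 to 10.32 in control down to 9.23 to 9.55 in light-exposed RPE. Melanocytes of the choroid and RPE cells cannot be told apart by these shared genes. Kit, a receptor of melanocytes, changed by -0.73 in the RPE and -0.04 in the NSR. Csf1r, the CSF1 receptor of macrophages, fell from 10.31, 10.09, 10.35 and 10.22 to 9.24, 9.19, 8.69 and 9.29 in the RPE and read 6.04, 5.83, 5.80 and 5.81 against 5.86, 5.84, 6.0 and 5.91 in the NSR. The difference was -1.17 ± 0.15 (adjusted p = 4.61e-05). Its list went both ways: of 26 markers of microglia and macrophages 3 rose and 3 fell in the RPE. For the difference 1 was more positive and 3 more negative in the RPE, near the shares over all genes. Without RPE light mouse 1, 5 were more negative, and without RPE light mouse 3, 2 were more positive. The 1 more positive was lost without NSR control mouse 2 or 3, NSR light mouse 1 or 4, or RPE control mouse 1.

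A microRNA gene of the RPE fell with its host gene. Mir204 lies in an intron of Trpm3, a cation channel gene, and the mature sequence, from RefSeq (build GRCm38.p6, chr19:22750610-22750631, plus strand), is shown with its seed, bases 2 to 8, in capitals, because this is the one microRNA gene the results name.
mmu-miR-204-5p: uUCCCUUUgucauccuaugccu
The array measures RNA from the hairpin gene and not the mature microRNA. Mir204 fell 3.86-fold in the RPE, from 9.31, 9.20, 8.23 and 9.70 to 7.41, 7.18, 6.63 and 7.43, where control mouse 3 and light mouse 3 were lowest in their groups. NSR values were 5.69, 6.04, 5.45 and 5.82 against 5.66, 5.35, 5.42 and 6.24, with overlap, and the difference was -1.87 ± 0.37 (adjusted p = 0.00227). Trpm3, chosen after its values were seen, fell 1.60-fold in the RPE, from 11.19, 11.02, 11.06 and 11.16 to 10.58, 10.49, 9.98 and 10.68. It read 8.89, 8.85, 8.88 and 9.04 against 8.84, 8.85, 8.77 and 8.81 in the NSR, and the difference of -0.58 ± 0.15 (adjusted p = 0.0172) missed the threshold under quantile normalization of all arrays (-0.46, adjusted p = 0.0596).

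Genes of cholesterol and fatty acid synthesis fell in the RPE. Of 27 genes measured, 18 fell in the RPE, while 4 fell and 2 rose in the NSR. The difference was more negative in the RPE at 14 and more positive at 0 (limma, adjusted p under 0.05, with 17 and 0 at an unadjusted p under 0.05), and 12 of the 14 changed in the RPE only. Over all genes 8.05% and 5.16% were more negative and more positive, and 8.53% fell in the RPE. The median difference was -0.47, with medians of 0.05 in the NSR and -0.37 in the RPE. The genes span the pathway from its start to its regulators: Hmgcs1, which makes HMG-CoA, changed by 0.09 in the NSR and -0.97 in the RPE, Idi1, an isomerase of the isoprenoid steps, by -0.11 and -1.21, and Cyp51, a demethylase of sterol synthesis, by 0.16 and -0.86. Elovl6, which lengthens fatty acids, changed by 0.21 and -0.99.

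Insig1, a sterol-regulated protein that holds back the activation of SREBP, fell 2.73-fold in the RPE, from 9.91, 10.77, 10.55 and 11.11 to 9.09, 9.29, 9.02 and 9.15. The NSR arrays overlapped, at 9.03, 8.91, 9.0 and 9.0 against 8.80, 8.92, 9.06 and 8.86, so that the light-exposed tissues ended at a similar level. Its difference was -1.37 ± 0.23 (adjusted p = 0.000578). The other 2 of the 14 rose in the NSR: Pmvk, phosphomevalonate kinase, changed by 1.35 there and 0.23 in the RPE, and Ebp, a sterol isomerase, by 0.97 and 0.28. The small rise of Pmvk in the RPE passed the threshold under 6 alternatives, with adjusted p from 0.0375 to 0.0496.

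**Figure D4:**
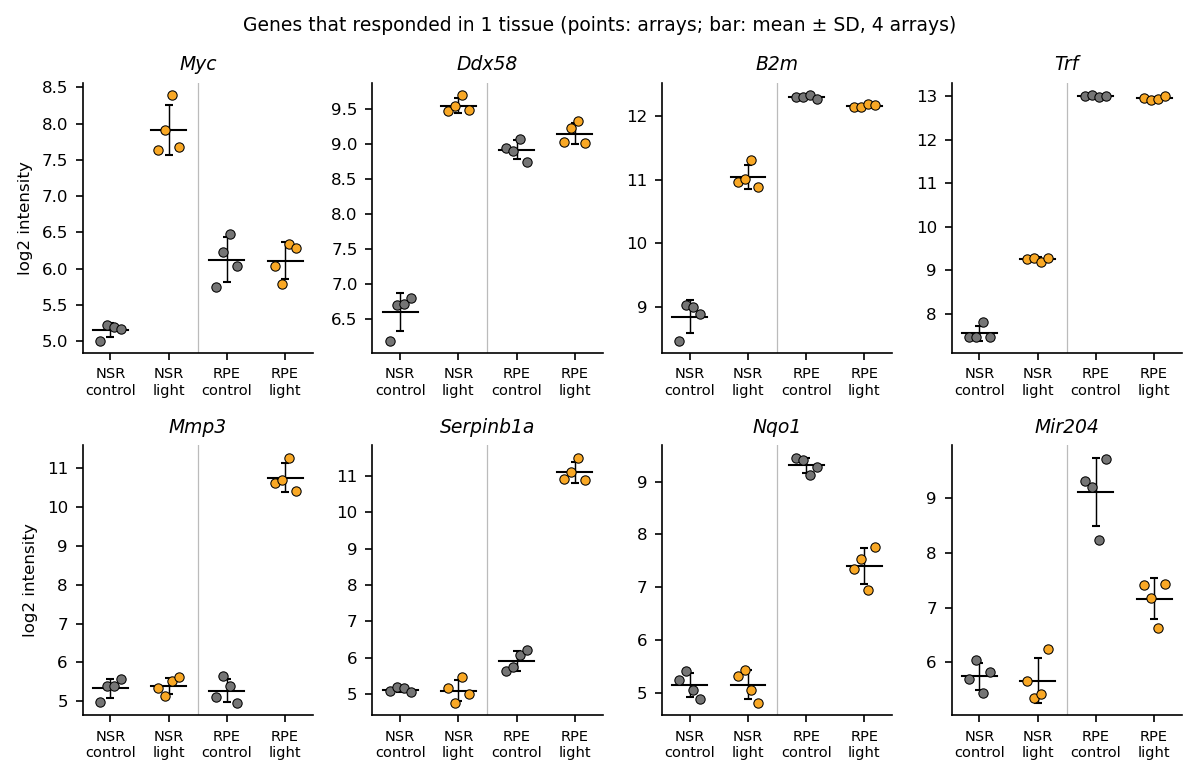
Log2 expression of 8 genes with a response in 1 tissue on each array (points, 4 per group) with the group mean and SD (bars). Myc, Ddx58, B2m and Trf rise in the NSR, Mmp3 and Serpinb1a rise and Nqo1 and Mir204 fall in the RPE.

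Some genes rose in both tissues and differed in how far. Serpina3n, a protease inhibitor of the acute phase, rose 7.29-fold in the NSR, from 6.43, 6.34, 6.57 and 6.36 to 9.15, 9.42, 9.42 and 9.18, and 64.2-fold in the RPE, from 6.05, 6.49, 6.64 and 6.70 to 12.55, 12.50, 12.49 and 12.36. Starting from overlapping levels the tissues ended far apart, and the difference was 3.14 ± 0.16 (adjusted p = 2.56e-09). Lcn2, which binds iron-carrying siderophores, rose from 5.86, 5.86, 5.98 and 6.06 to 7.92, 8.24, 8.32 and 7.75 in the NSR and from 5.91, 5.82, 5.68 and 5.60 to 10.05, 10.35, 10.82 and 10.04 in the RPE, a difference of 2.45 ± 0.21 (adjusted p = 6.65e-07).

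Mmp12, the elastase of macrophages, rose slightly in the NSR, from 6.55, 6.01, 5.91 and 5.82 to 6.6, 6.75, 6.65 and 6.84, and 24.3-fold in the RPE, from 5.76, 6.15, 6.30 and 5.93 to 10.40, 10.68, 11.47 and 10.00. The difference was 3.96 ± 0.32 (adjusted p = 2.79e-07). Ccl2, a chemokine that attracts monocytes, rose more in the NSR, from 5.91, 5.08, 6.01 and 6.18 to 9.84, 10.13, 10.31 and 9.80, than in the RPE, where it went from 6.59, 6.92, 6.54 and 6.62 to 8.52, 8.40, 8.68 and 8.33. All light arrays lay above all control arrays in both tissues, and the difference was -2.40 ± 0.26 (adjusted p = 6.11e-06). Its list went both ways: of 20 chemokines 6 were more negative and 4 more positive in the RPE, against 8.05% and 5.16% of all genes. Without NSR control mouse 3, 1 was more positive. Among 27 genes of reactive glia 23 rose in the NSR and 15 in the RPE, and 10 were more negative and 5 more positive in the RPE, the latter including Timp1, which inhibits metalloproteinases, with 1.59 and 3.30. The shares over all genes were 8.87% and 9.08% for rises in the NSR and the RPE. For the difference they were 8.05% more negative and 5.16% more positive.

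The other gene lists are described by their counts, beside 5.16% more positive and 8.05% more negative in the RPE over all genes. Growth and survival factors were more negative at 13 of 29 and more positive at 0 (limma, adjusted p under 0.05, with 14 and 1 at an unadjusted p under 0.05), and 1 was more positive without the 3 RPE arrays. Fgf2, a survival factor of photoreceptors, changed by 1.81 in the NSR and 0.33 in the RPE, while Vegfa, the growth factor of blood vessels, changed by 0.11 and -0.89. BMP and Wnt genes were more positive at 3 of 34, or 5 without RPE control mouse 3, and more negative at 8, among them the BMP target Id3, with 0.01 in the NSR and -0.79 in the RPE. Junction and keratin genes were more negative at 7 of 25 and more positive at 1, or 2 with array weights, without the 3 RPE arrays, or without RPE light mouse 1 or 4; in the RPE 5 fell and 3 rose.

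Clock genes were more negative in the RPE at 8 of 19, including Cry1, a repressor of the clock, with 0.03 in the NSR and -0.60 in the RPE. This count fell to 5 with the mouse as a block, under quantile normalization of all arrays, and without any of NSR control mice 1 and 3, NSR light mice 1, 2 and 3, RPE control mouse 4 and RPE light mice 1 and 2. It fell to 4 without NSR control mouse 4 and without the 3 RPE arrays. NF-kB subunits and feedback genes were more positive in the RPE at 4 of 16 and more negative at 1: Vcam1, an adhesion molecule for leukocytes, changed by 1.74 in the NSR and 3.26 in the RPE, and the apoptosis inhibitor Birc3 by 0.49 and 1.44.

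Genes of ribosome assembly rose at 28 of 44 in the NSR and 31 in the RPE, against 8.87% and 9.08% of all genes, and were more positive in the RPE at 6 and more negative at 1.

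**Figure D5:**
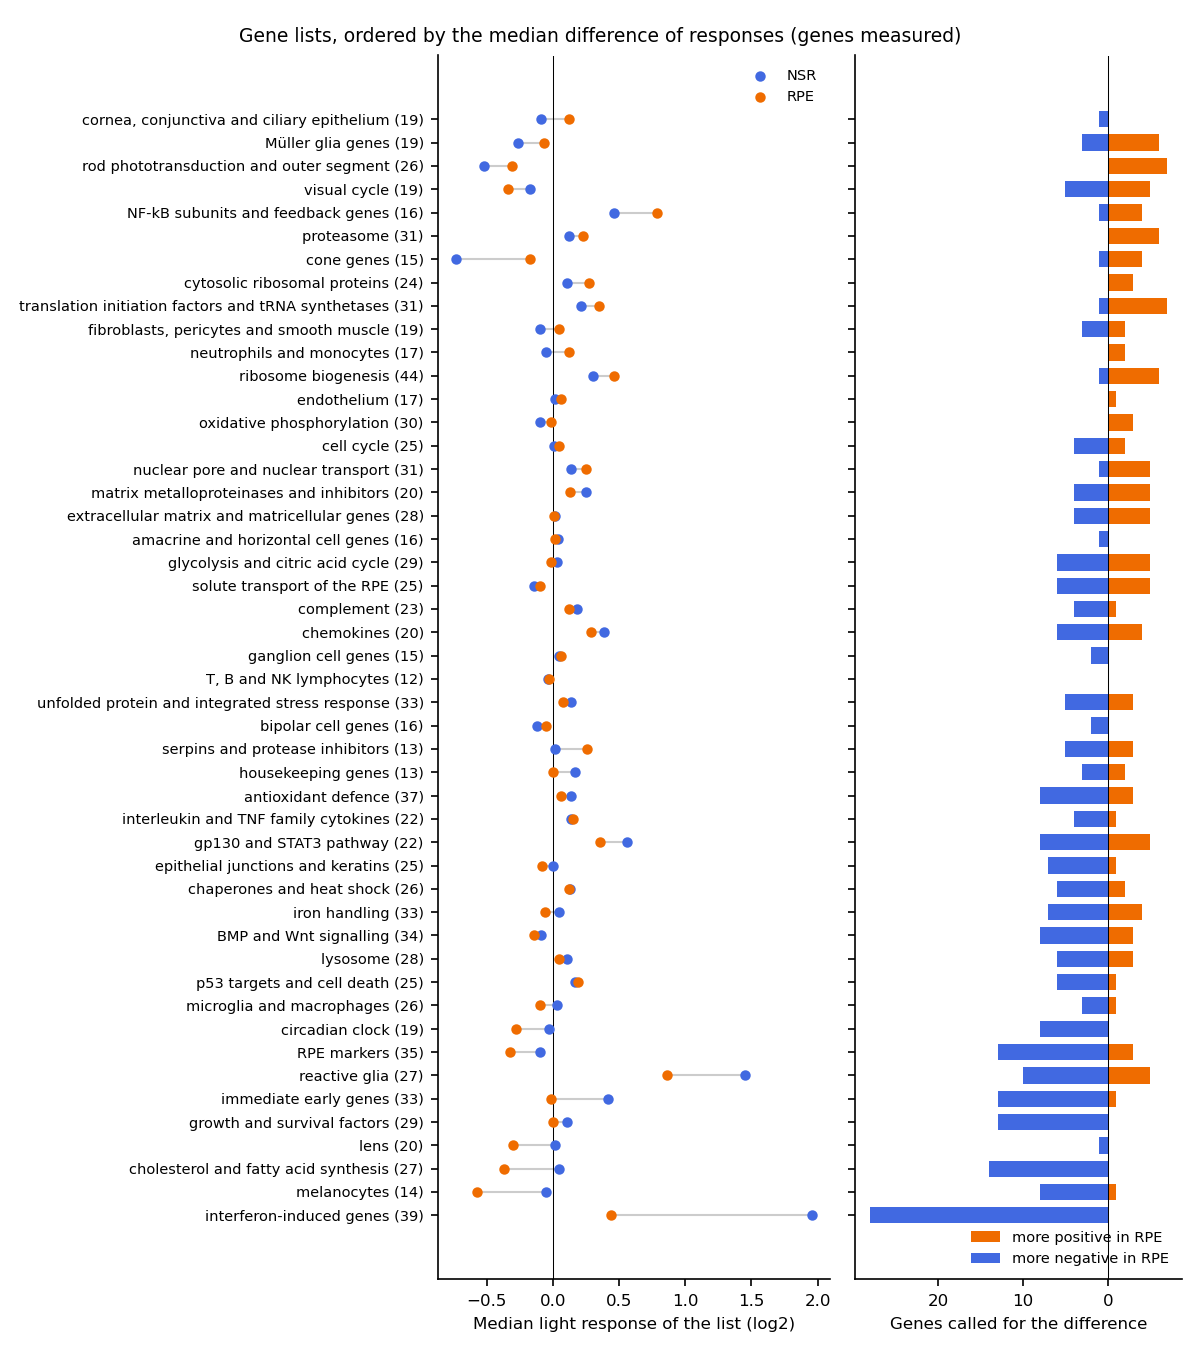
Median light response (log2) in NSR and RPE of 48 gene lists with at least 10 measured genes, and the number of members called for the difference in each direction. The interferon-induced list lies furthest to the NSR side, with medians of 1.96 and 0.44, and the melanocyte and lipid synthesis lists have RPE medians of -0.57 and -0.37.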

How the data were processed

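RNA of NSR and isolated RPE was extracted with the RNeasy Mini kit, amplified with the Ovation Pico system and biotin-labelled, per the labels' protocols. The authors deposited normalized log2 values; the submitters' processing notes name RMA and Partek 6.6. Their range, 2.20 to 13.84, is that of log2, which no label states. They hold no detection measure, and the sources used here name no build. Of 35556 clusters, 21789 had 1 symbol; each of 19938 genes took its brightest cluster. Responses within tissues, and their difference in a joint model of the 16 arrays (1 mean per group), were tested with limma 3.58.1 in R 4.3.3 (lmFit, eBayes, Benjamini-Hochberg adjusted p under 0.05) and checked on simulated data. NSR and RPE of 1 mouse share the labels' mouse identifier. Over all genes tested, their deviations from group means correlated at -0.011 to 0.053 over 8 mice. That does not show independence of the 2 tissues at genes that responded. Light mouse 3 was highest of its group in both tissues for Ifit3, Ddx58, Lcn2, Tnc and Ccl2, examples picked with values seen. For C3ar1 it was highest in the NSR and lowest in the RPE. Genes were named by size of the opposite, one-tissue and same-direction responses and by list, leaving out predicted and clone names; Timp3 and Trpm3 lie outside this rule. Other list members serve as examples and were picked with their values seen. Members, classes and gene lists were chosen with earlier results of these data known.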

Additional observations from a re-analysis of the deposited data

Results flagged for a closer look

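The responses of the tissues differed at 2635 genes in the test of the difference itself, and 186 of them changed in opposite directions. Of 168 groups of 4 arrays, for the 42 genes whose array values are given, 9 held an array far from the other 3, where chance gives about 1 in 20. In the RPE, control mouse 1 was low for Ccn1 (10.47 against 10.84 to 10.90) and for C3ar1 (8.24 against 8.75 to 8.84). Light mouse 3 was low in the RPE for Timp3 (11.72 against 12.06 to 12.08) and Csf1r (8.69 against 9.19 to 9.29). In the NSR, light mouse 3 was low for Opn1sw (9.21 against 9.76 to 9.87) and high for Glb1l3 (6.26 against 5.86 to 5.92). Control mouse 1 was low in the NSR for Ddx58 (6.19 against 6.70 to 6.79) and high for Csf1r (6.04 against 5.80 to 5.83), and control mouse 3 was high for Trf (7.81 against 7.46 to 7.48).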

How the results depend on the processing

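Of 4119 values of single genes under 25 settings, 4048 kept direction and call, 71 lost the call and 0 reversed. Of 165 genes 148 lost none. Most of these genes were named for large differences in the same data, so the few losses do not speak for other genes. Only the call for the difference is counted here, and classes moved as well. Without RPE light mouse 3, Ctsl and Idh2 went from opposite to NSR only. Without NSR control mouse 1, Polr1a and Cldn1 went from opposite to RPE only. With the mouse as a replicate block 2284 genes were called for the difference, and those called in neither tissue were 140, against 220. That class was 357 over every transcript cluster, 130 with responses from the fit of all arrays and 354 without the 3 RPE arrays. Without those arrays 2056 genes changed in the RPE, 53 changed the same way and more in the NSR, and 32 fell in the NSR and rose in the RPE. Leaving out 1 array gave 2350 to 2599 calls, and 93 to 152 genes with a larger response of the same direction in the RPE. Quantile normalization kept 149 of the 186 opposite genes in that class over all arrays, and 150 within each tissue. At an adjusted p under 0.01, 1565 genes were called, 546 more positive and 1019 more negative in the RPE: 447 NSR-only (284 rose, 163 fell), 743 RPE-only (254 rose, 489 fell), 85 the same way and more in the RPE, and 14 in neither. At 2-fold or more, 433 were called, 110 more positive and 323 more negative: 83 opposite (68 with the NSR rising, 15 with it falling), 119 NSR-only (96 and 23), 165 RPE-only (50 and 115), 38 and 28 the same way and more in the NSR or the RPE, and 0 in neither, since a stricter threshold keeps fewer genes. With a narrower bound, 389 NSR-only genes had a bounded RPE response. The cause of the other changes was not tested. Signal near background limits folds of dim genes.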

Other observations

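Visual cycle genes, which regenerate the chromophore, fell at 7 of 19 in the NSR and 11 in the RPE, and the difference was more positive in the RPE at 5 and more negative at 5. The shares over all genes were 6.24% and 8.53% for falls in the NSR and the RPE. For the difference they were 5.16% more positive and 8.05% more negative, which is also the background for the other lists given here. Rdh12, a retinol dehydrogenase of photoreceptors, changed by -0.98 in the NSR and 0.18 in the RPE, and Rdh11, a related enzyme, by -0.11 and -0.91. Rbp4, the carrier of retinol in blood, changed by 0.48 and 2.19. Among 25 genes of solute transport 5 were more positive and 6 more negative in the RPE: Slc39a12, a zinc transporter, changed by 0.15 in the NSR and -1.60 in the RPE, and Slc16a1, a carrier of lactate, by -1.04 and -0.37. Of 29 genes of glycolysis and the citric acid cycle, 5 were more positive, or 8 with a trended and robust prior, and 6 more negative, and Pfkfb3, which makes an activator of glycolysis, changed by 0.27 and 1.37.

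In gene order, 7 neighbouring protocadherin genes, Pcdhb16 to Pcdhb22, were all more negative in the RPE; they are close paralogs whose probes may share signal, so these values are uncertain. The 2 transcript clusters of Slitrk2 gave differences of 2.11 and 2.87.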
